A study of Arabidopsis thaliana with 8 samples.

Results

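The CaCl2 response of the calcifuge-class lines of Arabidopsis thaliana is described here from 4 of the 8 arrays of the study. The arrays were chosen by their titles: the lab calcifuge line and the wild ecotype from low soil pH, each at 12.5 mM CaCl2 and at 1 mM CaCl2. The titles call the lab line a calcifuge, and the wild line is placed in the same class for the low pH of its soil, since a calcifuge is a plant that avoids lime-rich soil and a calcicole one that grows on it. The comparison asks which genes were higher or lower at 12.5 mM than at 1 mM in the same direction in both lines. Values of the calcicole-class lines, the lab calcicole and the wild ecotype from high soil pH, are given beside them at the same 2 doses. The wild lines are called the low-soil-pH ecotype and the high-soil-pH ecotype below.

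All plants were grown in sterile sand fed with half-strength Long Ashton solution, in a growth room with 10 h days, and total RNA was taken from whole plants. Each line and dose was measured on 1 ATH1 array, a short-oligonucleotide array of Arabidopsis genes. The accession names of the lines, the age of the plants, the length of the treatment and the number of plants behind an array are not given in the sources used here. The 2 lines of the class therefore served as replicates of the dose. Every error below starts from the departure of lines from the dose effect of their class, which includes any real difference between the lines. The limma fit then draws the error of each probe set towards a value common to all probe sets. An error is therefore not the spread of the lines for that gene alone.

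Calcium enters the plant from the soil solution, is a structural ion of pectin in the cell wall and is kept low in the cytosol, where brief rises in its level act as a signal read by calmodulin-like proteins. On calcareous soil, calcium comes together with a high pH that makes iron poorly soluble, and lime-induced yellowing of young leaves is a known weakness of calcifuge plants. The treatment here was a calcium salt in sand culture, so that chloride was supplied together with calcium.

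The values are signal intensities, one per probe set, on a linear scale. The median signal of the 4 arrays lay between 42.4 and 47.8. The 2 doses of the lab calcifuge correlated at 0.925 across 13647 probe sets and those of the low-soil-pH ecotype at 0.931. The low-soil-pH ecotype array at 12.5 mM correlated at 0.944 with the high-soil-pH ecotype array at 12.5 mM, more closely than with its own line at 1 mM. Leaf markers were bright on every array and no marker named on the array was at 0. In the lab calcifuge the 4 leaf markers summed to 11015 at 12.5 mM and 15427 at 1 mM, and the 3 root markers to 867 at 12.5 mM and 305.0 at 1 mM. In the low-soil-pH ecotype the leaf sum was 16112 at 12.5 mM and 17918 at 1 mM, and the root sum 386 at 12.5 mM and 278 at 1 mM. Of the leaf markers in that ecotype, RCA, LHCB4.1 and PSAE-1 were lower at 12.5 mM. PRK was higher there, with 3260 at 12.5 mM and 2698 at 1 mM. The root sum was mostly PYK10, a beta-glucosidase of roots and hypocotyls, and its rise at 12.5 mM was not shared by all 3 root markers. EXPA7 was lower at 12.5 mM, with 12.1 against 33.5 at 1 mM in the lab calcifuge and 26.2 against 33.8 in the low-soil-pH ecotype. EXPA18 had 24.9 at 12.5 mM and 24.7 at 1 mM in the lab calcifuge, and 30.4 and 16.5 in the low-soil-pH ecotype. EXPA7 and EXPA18 were dim and left out of the tests. In whole plants, fewer cells of a type and less RNA per cell cannot be told apart. The part of these marker differences in the results below was not tested.

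Across the 13647 probe sets tested, none passed an adjusted p of 0.05 in limma for the calcifuge-class response (0.0%, higher or lower), and the smallest adjusted p was 0.155. An unadjusted p under 0.05 was reached by 1445 probe sets (10.6%), of which 787 were higher at 12.5 mM (5.77%) and 658 lower (4.82%), where 682 would be expected if no probe set differed. No gene below is therefore called as changed, and each is given by its values.

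The size of the CaCl2 differences was alike in the 2 lines, and their direction was shared by some genes and not by others. The differences had an SD of 0.55 on the log2 scale in the lab calcifuge and 0.54 in the low-soil-pH ecotype. They correlated at 0.266 between the lines across probe sets (Spearman 0.223), a description of these arrays, since probe sets are not independent. At least a 2-fold difference either way was found for 851 probe sets (6.24%) in the lab calcifuge and 873 (6.4%) in the low-soil-pH ecotype. Of all tested, 94 were at least 2-fold higher at 12.5 mM in both lines (0.689%) and 98 at least 2-fold lower in both (0.718%), while 27 differed 2-fold in opposite directions (0.198%). Counted at any size, 4132 were higher in both (30.3%), 3654 lower in both (26.8%) and 5861 opposite (42.9%). Of the 94, 38 name 1 gene, 2 name several and 54 are unnamed here; of the 98, the numbers are 44, 1 and 53.

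**Figure D1:**
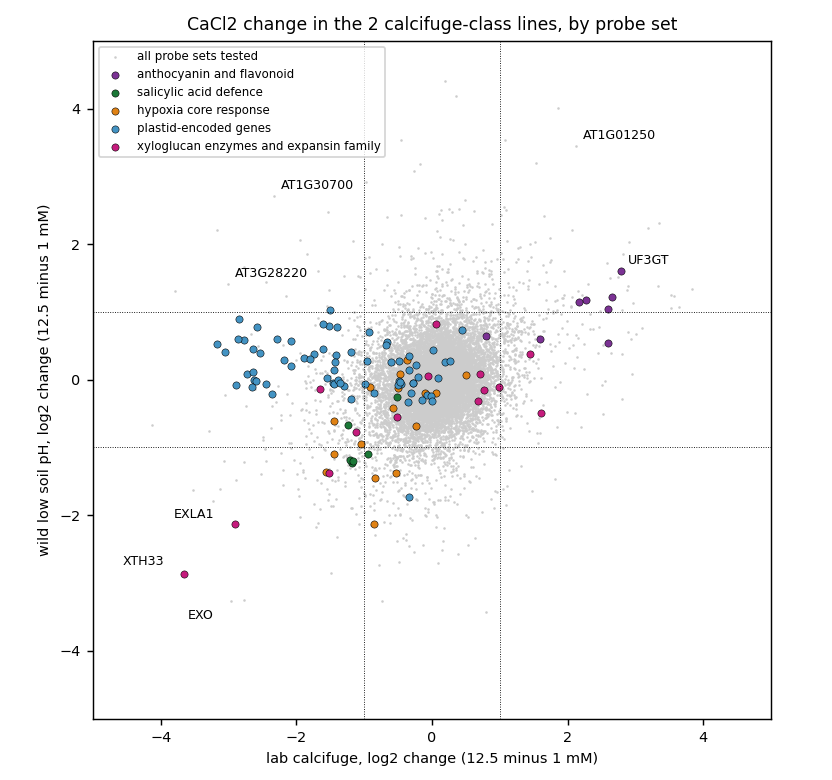
Each grey point is 1 of the 13647 probe sets tested, with the log2 change (12.5 minus 1 mM CaCl2) in the lab calcifuge on the x axis and in the low-soil-pH ecotype on the y axis, and coloured points are members of 5 gene lists; dotted lines mark a 2-fold change. Anthocyanin genes lie at the upper right, XTH33, EXLA1 and EXO at the lower left, and many plastid-encoded genes lie far to the left with wild values near 0.

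Genes of anthocyanin and flavonol synthesis were higher at 12.5 mM in both lines, for all 8 tested of 33 listed members (9 are named on the array), beside 30.3% of all probe sets. The pathway turns phenylalanine-derived precursors into pigments and sunscreen compounds and is known for its response to light, sugar and nutrient stress. The list had a median log2 change of 2.43 in the lab calcifuge and 1.09 in the low-soil-pH ecotype, where the medians of all probe sets were 0.06 in the lab calcifuge and -0.03 in the low-soil-pH ecotype. Among the 8, 5 were at least 2-fold higher in both lines, beside 0.689% of all probe sets, and none passed the threshold.

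Among these members were CHIL, a chalcone isomerase-like protein, and DFR, the dihydroflavonol reductase that commits the pathway to anthocyanin. The signal of CHIL was 974 at 12.5 mM and 152 at 1 mM in the lab calcifuge, and 403 at 12.5 mM and 171 at 1 mM in the low-soil-pH ecotype. DFR had 2351 at 12.5 mM and 484 at 1 mM in the lab calcifuge, and 858 at 12.5 mM and 379 at 1 mM in the low-soil-pH ecotype. For both genes the 12.5 mM arrays lay above the 1 mM arrays without overlap, and the lab calcifuge at 12.5 mM was the highest. The mean change was 1.94 ± 0.36 (SE) for CHIL and 1.72 ± 0.30 for DFR.

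The decorating enzymes, which add sugars and acyl groups to the pigment, stood on the same side. UF3GT, which adds xylose to anthocyanidin glucosides, had a signal of 847 at 12.5 mM and 120.4 at 1 mM in the lab calcifuge, and 567 at 12.5 mM and 186 at 1 mM in the low-soil-pH ecotype. This is 4.58-fold on the log2(signal + 2.507) scale, a log2 change of 2.19 ± 0.32 with a limma adjusted p of 0.244. AT5MAT, the anthocyanin malonyltransferase, had 293 at 12.5 mM and 46.5 at 1 mM in the lab calcifuge, and 205 at 12.5 mM and 98.4 at 1 mM in the low-soil-pH ecotype. AT4G14090, the anthocyanidin 5-O-glucosyltransferase, had 504 at 12.5 mM and 110.3 at 1 mM in the lab calcifuge, and 492 at 12.5 mM and 221 at 1 mM in the low-soil-pH ecotype. In each of the 3, both 12.5 mM arrays were above both 1 mM arrays.

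The 3 remaining members act on flavonols, and one of them also on anthocyanidins, and had smaller differences in the wild line. UGT78D2, a flavonoid 3-O-glucosyltransferase, differed by 2.59 in the lab calcifuge and 0.55 in the low-soil-pH ecotype. UGT78D1, a flavonol 3-O-rhamnosyltransferase, differed by 1.59 and 0.59 in the same order of lines, and AT1G06000, a flavonol 7-O-rhamnosyltransferase, by 0.80 and 0.65. In the calcicole-class lines the list medians were 1.49 in the lab calcicole and 0.84 in the high-soil-pH ecotype. At 12.5 mM 7 of the 8 members were higher in both of those lines as well, beside 28.6% of all probe sets. The difference between the classes did not pass for any member of the list.

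The genes named as higher at 12.5 mM are the 15 with the largest change shared by both lines among those with a signal of at least 30 in the brighter array of each line. Their mean log2 changes ran between 1.37 and 2.78, with an SE of 0.24 to 0.72 and limma adjusted p-values of 0.219 to 0.422. They include 2 transcription factors of the AP2/ERF family: AT1G01250, of the DREB-type subfamily, and SHN3, a regulator of cuticle and cell wall synthesis.

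AT1G01250 had a signal of 55.0 at 12.5 mM and 10.7 at 1 mM in the lab calcifuge, and 59.8 at 12.5 mM and 3.23 at 1 mM in the low-soil-pH ecotype. SHN3 had 77.7 at 12.5 mM and 10.5 at 1 mM in the lab calcifuge, and 61.3 at 12.5 mM and 20.0 at 1 mM in the low-soil-pH ecotype. The 1 mM arrays of both genes were dim, so that the size of the change (2.78 ± 0.38 and 2.07 ± 0.36) leans on the pseudocount of 2.507. SHN3 was 55.4 at 12.5 mM and 29.8 at 1 mM in the lab calcicole, the same direction as in the calcifuge-class lines, and 55.1 at 12.5 mM and 61.2 at 1 mM in the high-soil-pH ecotype. Its class difference of 1.72 ± 0.51 did not pass.

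Starch synthesis was represented by 2 large subunits of ADP-glucose pyrophosphorylase, APL3 and APL4, the enzyme that makes the glucose donor for starch. APL3 had 445 at 12.5 mM and 72.6 at 1 mM in the lab calcifuge, and 223 at 12.5 mM and 66.2 at 1 mM in the low-soil-pH ecotype. APL4 had 76.1 at 12.5 mM and 20.8 at 1 mM in the lab calcifuge, and 219 at 12.5 mM and 62.3 at 1 mM in the low-soil-pH ecotype. Within each line the difference was at least 3-fold for both genes, whereas across lines APL4 at 12.5 mM in the lab calcifuge was close to APL4 at 1 mM in the wild line. On the log2 scale the widest APL3 difference was that of the lab calcifuge (2.58, beside 2.18 in the lab calcicole) and the widest APL4 difference that of the lab calcicole (3.44). The high-soil-pH ecotype had the smallest of both, with APL3 at 341 at 12.5 mM and 358 at 1 mM.

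Genes of stress handling and protein turnover followed. PUB19, a U-box ubiquitin ligase known from drought and abscisic acid signalling, had 174 at 12.5 mM and 50.4 at 1 mM in the lab calcifuge, and 418 at 12.5 mM and 96.2 at 1 mM in the low-soil-pH ecotype, a log2 change of 1.91 ± 0.32. MSRB5, a methionine sulfoxide reductase that repairs oxidised protein, had 623 at 12.5 mM and 255 at 1 mM in the lab calcifuge, and 506 at 12.5 mM and 184 at 1 mM in the low-soil-pH ecotype. AT1G80130, a tetratricopeptide repeat protein, was the brightest of the 15, with 1579 at 12.5 mM and 214 at 1 mM in the lab calcifuge, and 1059 at 12.5 mM and 421 at 1 mM in the low-soil-pH ecotype. In each of these 3 genes both 12.5 mM arrays of the class lay above both 1 mM arrays.

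CYP71B26, a cytochrome P450, and TBL26, of a family of wall polysaccharide acetyltransferases, were higher by 1.38 ± 0.24 and 1.60 ± 0.32. CYP71B26 had 230.3 at 12.5 mM and 89.1 at 1 mM in the lab calcifuge, and 159 at 12.5 mM and 57.9 at 1 mM in the low-soil-pH ecotype. AT1G55760, a BTB/POZ domain protein, was 82.1 at 12.5 mM and 31.8 at 1 mM in the lab calcifuge and 31.4 at 12.5 mM and 6.26 at 1 mM in the low-soil-pH ecotype, but 45.8 at 12.5 mM and 117 at 1 mM in the lab calcicole. In the high-soil-pH ecotype it was 40.5 at 12.5 mM and 45.3 at 1 mM. Its calcifuge-class lines lay so far apart in level that the wild array at 12.5 mM was close to the lab array at 1 mM. The remaining genes of the 15, AT1G17830, AT4G32920, AT3G15650 and AT1G21480, were higher by 1.49 to 2.61; AT4G32920 was at 2.44 at 1 mM in the lab calcifuge, under the pseudocount.

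**Figure D2:**
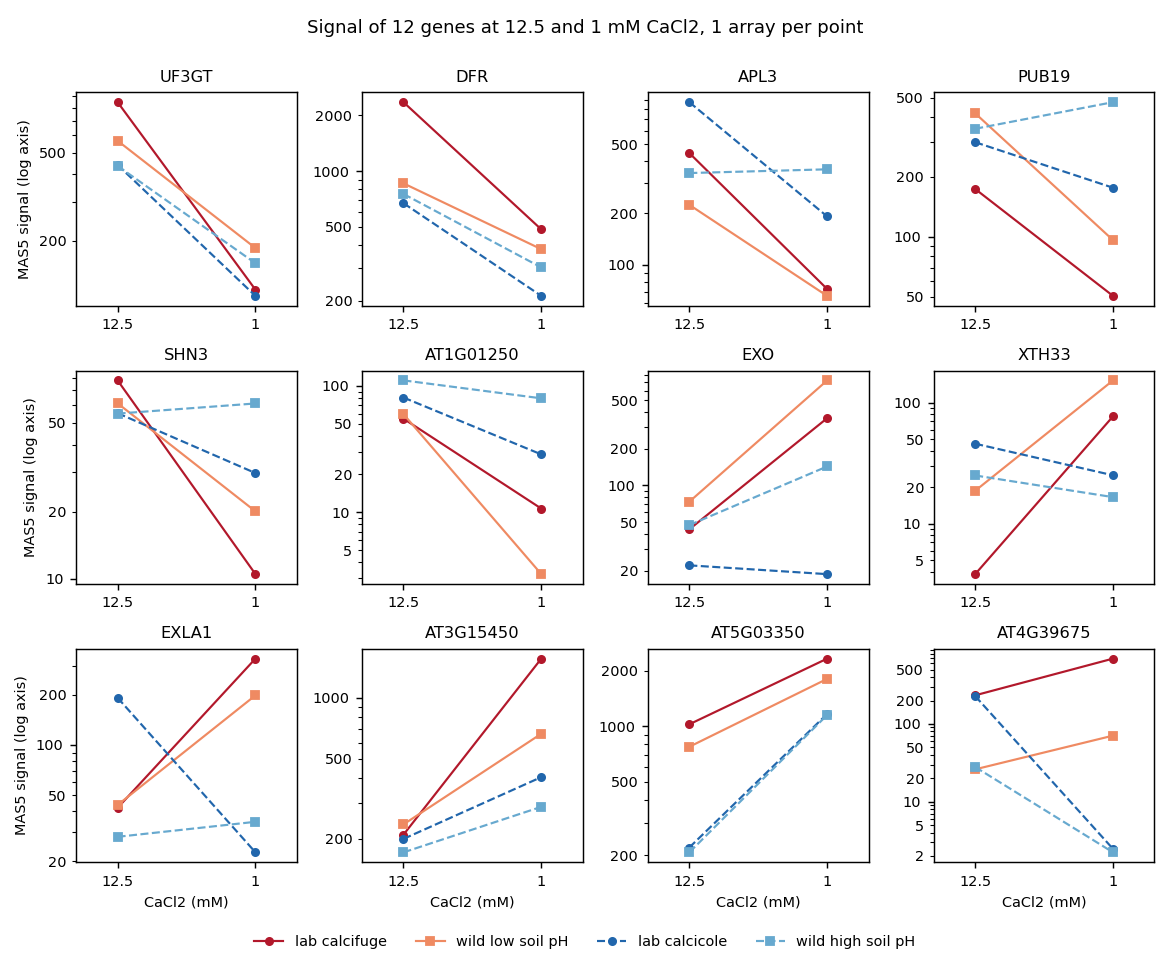
Signal (log axis) of 12 genes at 12.5 mM and 1 mM CaCl2, with 1 array per point and a line joining the doses of each plant line; red shades are the calcifuge-class lines and blue shades, dashed, the calcicole-class lines. UF3GT and DFR slope the same way in all 4 lines, while EXLA1, XTH33 and AT4G39675 slope one way in both calcifuge-class lines and the other way in the lab calcicole.

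The glycosyltransferases of the UGT family, which attach sugars to hormones, flavonoids and foreign compounds, leaned to higher values in both lines. Of 20 tested (47 on the array), 15 were higher in both lines, none was lower in both and 5 went opposite ways. Among all probe sets these shares were 30.3%, 26.8% and 42.9%. The median changes were 0.32 in the lab calcifuge and 0.53 in the low-soil-pH ecotype, against 0.17 in the lab calcicole and -0.18 in the high-soil-pH ecotype. None passed the threshold, and 2 were at least 2-fold higher in both lines, beside 0.689% of all probe sets. The family was taken by gene symbol and overlaps the anthocyanin list, so the 2 lists are not independent. Its largest change in the lab calcifuge, 2.59, was that of UGT78D2.

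Those 2 were UGT85A5 and UGT72B3. UGT85A5 had a signal of 47.1 at 12.5 mM and 15.5 at 1 mM in the lab calcifuge, and 22.4 at 12.5 mM and 4.59 at 1 mM in the low-soil-pH ecotype. UGT72B3 had 56.6 at 12.5 mM and 25.6 at 1 mM in the lab calcifuge, and 94.8 at 12.5 mM and 46.0 at 1 mM in the low-soil-pH ecotype, where the calcicole-class lines had 45.8 and 76.7 at 12.5 mM and 83.5 and 97.5 at 1 mM. UGT72B3 also marks the edge of the 2-fold count, with changes of 1.07 and 1.00, and the glutathione transferase GSTU25, with 1.83 and 0.99, lay just outside it. Of the 10 cytochrome P450 genes tested (22 on the array), 5 were higher in both lines and 2 lower in both, beside 30.3% and 26.8% of all probe sets.

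Iron-deficiency genes are of interest because lime-rich soil starves plants of iron. Only 6 of 34 listed members were tested. Of them 3 were higher at 12.5 mM in both lines, none lower in both and 3 opposite, beside 30.3%, 26.8% and 42.9% of all probe sets. Median changes were 0.12 in the lab calcifuge and 0.69 in the low-soil-pH ecotype, against 1.32 in the lab calcicole and 0.16 in the high-soil-pH ecotype. In both calcicole-class lines 4 of the 6 were higher, beside 28.6% of all probe sets. AT1G47400, which encodes a short peptide that promotes iron uptake, had a signal of 84.1 at 12.5 mM and 39.0 at 1 mM in the lab calcifuge, and 947 at 12.5 mM and 159 at 1 mM in the low-soil-pH ecotype (log2 change 1.81 ± 0.62, limma adjusted p 0.405). The wild line at 1 mM was already above the lab line at 12.5 mM, so that the difference was within lines and not across them. AT1G47400 was also higher at 12.5 mM in the calcicole-class lines, by 4.14 in the lab calcicole and 1.61 in the high-soil-pH ecotype. PYE, a transcription factor of iron homeostasis in roots, differed by 0.41 in the lab calcifuge and 0.60 in the low-soil-pH ecotype. AT3G13610 and AT3G12900, which make coumarins that mobilise iron in the soil, differed by -0.04 and -0.30 in the lab calcifuge and by 0.79 and 0.52 in the low-soil-pH ecotype.

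Genes of the cold, drought and abscisic acid response stood mixed, with 3 of 5 tested higher in both lines and 2 opposite, beside 30.3% and 42.9% of all probe sets. HIS1-3, a drought-induced linker histone, had 322 at 12.5 mM and 49.4 at 1 mM in the lab calcifuge but 189 at 12.5 mM and 144 at 1 mM in the low-soil-pH ecotype. LTI30, a dehydrin, was higher by 0.97 in the lab calcifuge and 1.12 in the low-soil-pH ecotype. COR15A, a chloroplast protectant, was bright on every array, with changes of 0.42 and 0.84, while COR15B and COR47 went opposite ways in the 2 lines.

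**Figure D3:**
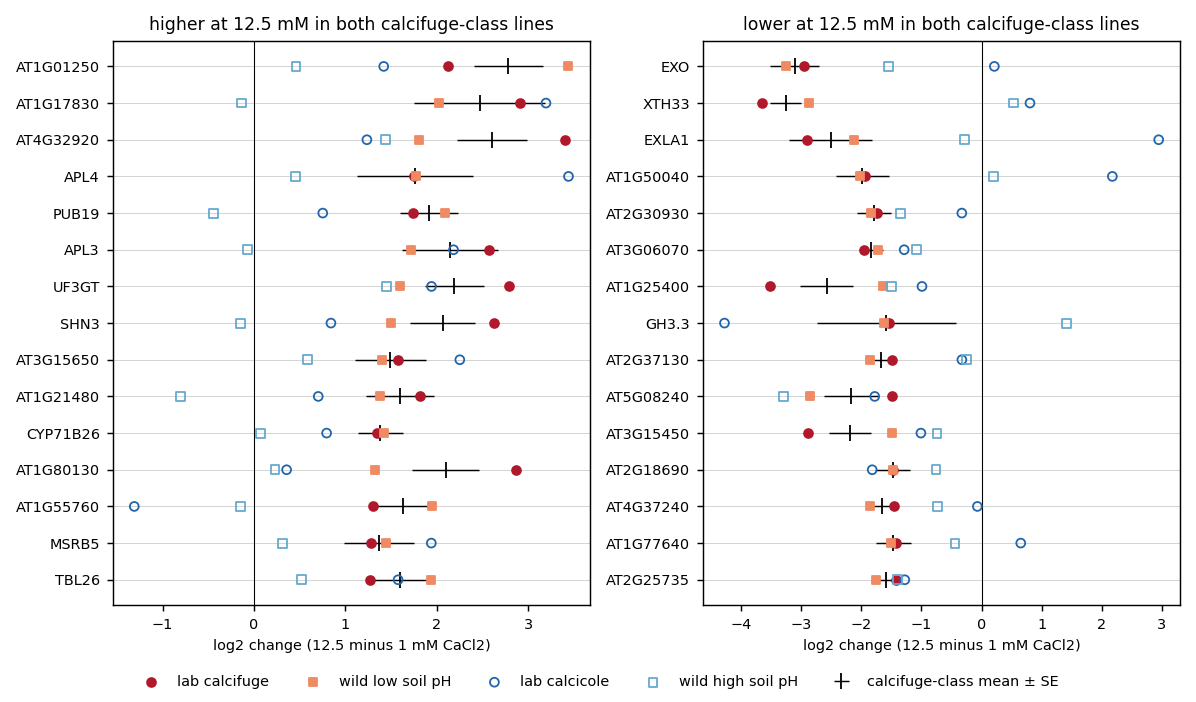
Log2 change (12.5 minus 1 mM CaCl2) of the 15 genes named as higher and the 15 named as lower, with a symbol for each plant line and a black tick with a bar for the calcifuge-class mean ± SE of the limma fit. Filled symbols of the calcifuge-class lines lie on 1 side of 0 by the rule that chose the genes. The open calcicole-class symbols lie on both sides of 0 for 5 of the higher genes, PUB19 among them. They do so for 4 of the lower genes, among them EXO, EXLA1 and GH3.3.

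The leading lower genes act in the cell wall and in growth. EXO (EXORDIUM), a cell wall protein that promotes growth in response to brassinosteroid, had a signal of 43.6 at 12.5 mM and 356 at 1 mM in the lab calcifuge, and 73.5 at 12.5 mM and 727 at 1 mM in the low-soil-pH ecotype. XTH33, a xyloglucan endotransglucosylase that cuts and rejoins the polymers tethering cellulose, had 3.83 at 12.5 mM and 77.2 at 1 mM in the lab calcifuge, and 18.7 at 12.5 mM and 153 at 1 mM in the low-soil-pH ecotype. EXLA1, of the expansin-like family, had 41.9 at 12.5 mM and 330.1 at 1 mM in the lab calcifuge, and 43.6 at 12.5 mM and 199 at 1 mM in the low-soil-pH ecotype. In all 3 both 12.5 mM arrays were below both 1 mM arrays.

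The mean log2 change was -3.26 ± 0.26 for XTH33, 9.60-fold lower on the log2(signal + 2.507) scale and with the smallest limma adjusted p of all probe sets, 0.155. For EXO it was -3.11 ± 0.41 (8.64-fold lower, adjusted p 0.204) and for EXLA1 -2.51 ± 0.69 (5.71-fold lower, adjusted p 0.327). The size for XTH33 leans on 1 dim array, since 3.83 is close to the pseudocount of 2.507. In the calcicole-class lines, XTH33 had 45.8 at 12.5 mM and 25.1 at 1 mM in the lab calcicole, with a change of 0.53 in the high-soil-pH ecotype, and EXLA1 had 192 at 12.5 mM and 22.7 at 1 mM in the lab calcicole. In the high-soil-pH ecotype EXLA1 had 28.1 at 12.5 mM and 34.6 at 1 mM, lower as in the calcifuge-class lines, so the contrast for EXLA1 rests on the lab calcicole. EXO had 22.1 at 12.5 mM and 18.7 at 1 mM in the lab calcicole. In the high-soil-pH ecotype EXO was lower, with 47.3 at 12.5 mM and 143 at 1 mM. The class difference was -3.93 ± 0.36 for XTH33 (limma adjusted p 0.199), so it did not pass.

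The wall-loosening families were mixed. Of 14 xyloglucan endotransglucosylases and expansins tested (28 on the array), 6 were lower in both calcifuge-class lines, 3 higher in both and 5 opposite. Among all probe sets these shares were 26.8%, 30.3% and 42.9%. The median over members of the mean change was 0.09, while the median was -0.0033 in the lab calcifuge and -0.23 in the low-soil-pH ecotype, so these summaries differ in sign. With no filter on dim probe sets the first became -0.10. XTH33, EXLA1 and XTH16, 3 of the 14, were at least 2-fold lower in both lines, beside 0.718% of all probe sets. XTH16 had 33.4 at 12.5 mM and 101 at 1 mM in the lab calcifuge, and 64.5 at 12.5 mM and 171 at 1 mM in the low-soil-pH ecotype. EXPA8, an expansin, differed by -1.13 and -0.77, whereas EXLB1 differed by 1.45 and 0.37, in the lab calcifuge and the low-soil-pH ecotype in that order.

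The 15 genes named as lower had mean log2 changes of -3.26 to -1.47 with an SE of 0.21 to 1.16 and limma adjusted p-values of 0.155 to 0.669. Besides the wall genes, AT3G15450, of the aluminium-induced protein family, had 209 at 12.5 mM and 1566 at 1 mM in the lab calcifuge, and 236 at 12.5 mM and 664 at 1 mM in the low-soil-pH ecotype (-2.19 ± 0.35). The calcicole-class lines had 199.6 and 171 at 12.5 mM and 404 and 288 at 1 mM, the same order of doses at lower levels. GH3.3, an enzyme that conjugates auxin to amino acids, differed by -1.55 in the lab calcifuge and -1.62 in the low-soil-pH ecotype, but by -4.28 in the lab calcicole and 1.41 in the high-soil-pH ecotype, which gave it the largest SE of the 15 (1.16). AT2G37130, a class III peroxidase, had 85.0 at 12.5 mM and 244 at 1 mM in the lab calcifuge, and 45.6 at 12.5 mM and 173 at 1 mM in the low-soil-pH ecotype (-1.68 ± 0.21).

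Among the rest, AT1G77640, an ERF-family transcription factor, differed by -1.47 ± 0.29. AT1G50040 had 11.5 at 12.5 mM and 51.3 at 1 mM in the lab calcifuge and 29.8 at 12.5 mM and 129 at 1 mM in the low-soil-pH ecotype, but 37.8 at 12.5 mM and 6.4 at 1 mM in the lab calcicole. In the high-soil-pH ecotype it had 28.5 at 12.5 mM and 24.6 at 1 mM. AT3G06070 differed by -1.84 ± 0.21 and AT2G25735 by -1.59 ± 0.21, and both were lower at 12.5 mM in all 4 lines. AT2G30930, AT1G25400, AT5G08240, AT2G18690 and AT4G37240 lay between -2.58 and -1.48. At the edge of the 2-fold count, AT3G15630 lay just inside with changes of -2.08 and -1.004 and AT5G15780 just outside with -1.21 and -0.99.

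Defence genes were lower at 12.5 mM. All 6 members tested of the salicylic acid list (35 listed) were lower in both lines, beside 26.8% of all probe sets. Of the 6, 3 were at least 2-fold lower in both, beside 0.718% of all probe sets. The list medians were -1.18 in the lab calcifuge and -1.15 in the low-soil-pH ecotype, against -1.75 in the lab calcicole and -1.63 in the high-soil-pH ecotype. Salicylic acid is the hormone of defence against biotrophic pathogens. AT5G03350, a lectin-like protein induced by it, had 1027 at 12.5 mM and 2334 at 1 mM in the lab calcifuge, and 775 at 12.5 mM and 1812 at 1 mM in the low-soil-pH ecotype. AT5G24210, a lipase-like protein, had 118 at 12.5 mM and 276 at 1 mM in the lab calcifuge, and 73.4 at 12.5 mM and 171 at 1 mM in the low-soil-pH ecotype. The changes of these 2 genes were nearly equal in the 2 lines (-1.18 and -1.22 for AT5G03350, -1.21 and -1.19 for AT5G24210), with limma adjusted p-values of 0.247 for each.

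AT3G48640, an uncharacterised member of the list, differed by -1.17 in the lab calcifuge and -1.19 in the low-soil-pH ecotype, though its level was very unequal, 2.73 at 12.5 mM and 9.28 at 1 mM in the lab calcifuge against 327 at 12.5 mM and 753 at 1 mM in the wild line. The lab calcifuge signals are at and near the pseudocount of 2.507, so the size of its change there, and its place among the 3, depend on the pseudocount. GRX480, a glutaredoxin that links salicylic acid to jasmonate signalling, differed by -1.23 in the lab calcifuge and -0.67 in the low-soil-pH ecotype. SAG101, a partner of the immune regulator EDS1, had the smallest changes, -0.52 and -0.26. The 6 genes were lower at 12.5 mM in both calcicole-class lines too, beside 28.1% of all probe sets.

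The jasmonate and ethylene list had 3 members tested of 28, and all 3 were lower in both calcifuge-class lines, beside 26.8% of all probe sets. PDF1.2b, a plant defensin, had 171 at 12.5 mM and 1187 at 1 mM in the lab calcifuge, and 41.7 at 12.5 mM and 99.9 at 1 mM in the low-soil-pH ecotype. PDF1.2, its near-identical paralogue, had 309 at 12.5 mM and 1065 at 1 mM in the lab calcifuge, and 20.6 at 12.5 mM and 48.1 at 1 mM in the low-soil-pH ecotype. The signals of the 2 defensins are uncertain as separate genes, because probes can bind both transcripts. In the lab calcicole and the high-soil-pH ecotype, PDF1.2b differed by -3.21 and -1.10, and PDF1.2 by -5.08 and 0.26. THI2.2, a thionin, differed by -0.94 and -0.81 in the calcifuge-class lines and by 0.45 and 0.44 in the lab calcicole and the high-soil-pH ecotype. Of the 5 WRKY transcription factors tested, 2 were lower in both calcifuge-class lines and 3 were opposite, beside 26.8% and 42.9% of all probe sets. The 2 were WRKY53, by -0.62 and -2.11, and WRKY22, by -0.55 and -0.56.

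Genes of calcium signalling were mixed. Of the 5 genes tested from the calcium signalling and transport list (40 listed), none was higher in both lines, 2 were lower in both and 3 were opposite. Among all probe sets these shares were 30.3%, 26.8% and 42.9%, and 5 genes are too few to set apart from them. The list medians were -0.47 in the lab calcifuge and -1.01 in the low-soil-pH ecotype. CML38, a calmodulin-like protein induced by wounding and low oxygen, had 67.5 at 12.5 mM and 124 at 1 mM in the lab calcifuge, and 14.4 at 12.5 mM and 71.0 at 1 mM in the low-soil-pH ecotype (-1.49 ± 0.45, limma adjusted p 0.349). CML42, a calmodulin-like protein of trichomes and defence, had 136 at 12.5 mM and 190.4 at 1 mM in the lab calcifuge, and 87.5 at 12.5 mM and 201 at 1 mM in the low-soil-pH ecotype. CaS, the thylakoid calcium sensor, was bright on every array, with 768 at 12.5 mM and 711 at 1 mM in the lab calcifuge, and 984 at 12.5 mM and 1052 at 1 mM in the low-soil-pH ecotype.

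In the wider family of calmodulin-like proteins and glutamate receptor channels, 2 of 10 tested were higher in both lines, 3 lower in both and 5 opposite. These counts lay near the shares of all probe sets, 30.3%, 26.8% and 42.9% in the same order. CML23 differed by 0.68 in the lab calcifuge and -1.01 in the low-soil-pH ecotype. STZ, a zinc-finger repressor of the touch and rapid stress list, had 253 at 12.5 mM and 227 at 1 mM in the lab calcifuge but 64.7 at 12.5 mM and 349 at 1 mM in the low-soil-pH ecotype. None of these genes passed the threshold.

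Genes of the core hypoxia response, which support fermentation and low-oxygen survival, were mostly lower at 12.5 mM in both calcifuge-class lines and mostly higher in both calcicole-class lines. Of 16 tested (38 listed), 12 were lower in both calcifuge-class lines, 1 was higher in both and 3 were opposite, beside 26.8%, 30.3% and 42.9% of all probe sets. In both calcicole-class lines 12 of the 16 were higher, beside 28.6% of all probe sets. The medians were -0.55 in the lab calcifuge and -0.51 in the low-soil-pH ecotype, against 2.04 in the lab calcicole and 1.22 in the high-soil-pH ecotype. The list was written with these results in view, and no member passed the threshold for the class difference.

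AT4G39675, a small uncharacterised hypoxia-induced gene, had 233 at 12.5 mM and 692 at 1 mM in the lab calcifuge, and 26.0 at 12.5 mM and 70.7 at 1 mM in the low-soil-pH ecotype. The lab calcicole had 228 at 12.5 mM and 2.46 at 1 mM, and the high-soil-pH ecotype 27.9 at 12.5 mM and 2.22 at 1 mM. At 12.5 mM the lab lines thus stood close to each other, as did the wild lines, and the classes parted at 1 mM, where the calcicole-class arrays were near the pseudocount. AT1G19530, also hypoxia-induced, showed the same order, with 331 at 12.5 mM and 908 at 1 mM in the lab calcifuge, 93.8 at 12.5 mM and 145 at 1 mM in the low-soil-pH ecotype, 481 at 12.5 mM and 43.8 at 1 mM in the lab calcicole, and 135 at 12.5 mM and 9.88 at 1 mM in the high-soil-pH ecotype.

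The class difference of AT1G19530 was -4.46 ± 0.37 and that of AT4G39675 -5.57 ± 0.86, with limma adjusted p-values of 0.199 and 0.692. AT4G10270, a wound-responsive family gene, had a class difference of -3.02 ± 0.30 (adjusted p 0.199), and AT3G10040, a trihelix transcription factor that restrains the hypoxia response, one of -2.53 ± 0.34 (adjusted p 0.526). PDC2, a pyruvate decarboxylase of fermentation, was the member higher in both calcifuge-class lines, by 0.50 and 0.07. Without the high-soil-pH ecotype, 5 probe sets passed, 3 of which name a gene of the hypoxia list: AT4G39675, AT1G33055 and AT5G10040. That fit sets the lab calcicole alone against the class, with an error taken from the 2 calcifuge-class lines and assumed to hold for the lab calcicole, so its calls describe that line and not the calcicole class.

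**Figure D4:**
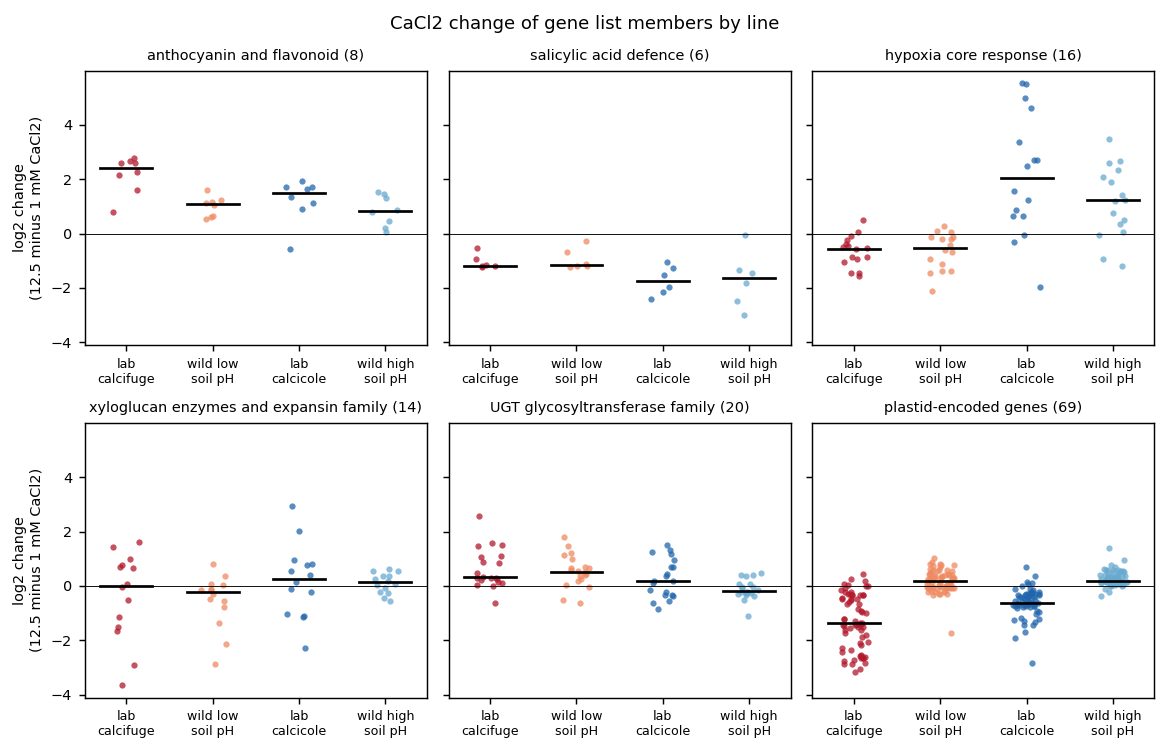
Log2 change (12.5 minus 1 mM CaCl2) of each tested member of 6 gene lists in the 4 plant lines, calcifuge-class lines at the left of each panel, with the number of members in the panel title and the median as a bar. Anthocyanin and salicylic acid genes lie on the same side of 0 in all 4 lines by their medians, hypoxia genes part by class, and plastid-encoded genes are low in the lab calcifuge (median -1.38) and not in the low-soil-pH ecotype (median 0.20).

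The 69 plastid-encoded genes were mostly lower at 12.5 mM in the lab calcifuge and divided in the low-soil-pH ecotype. They encode the core of the photosystems, the large subunit of Rubisco and part of the plastid's own ribosomes and polymerase. In the lab calcifuge 63 of 69 were lower at 12.5 mM, beside 6032 of all 13647 probe sets, with changes between -3.17 and 0.44. Of the 63, 39 were at least 2-fold lower, where 6.24% of all probe sets differed 2-fold either way in this line. In the low-soil-pH ecotype 43 of 69 were higher, beside 6510 of all 13647 probe sets, with changes between -1.73 and 1.02. The median was -1.38 in the lab calcifuge and 0.20 in the low-soil-pH ecotype, beside -0.61 in the lab calcicole and 0.19 in the high-soil-pH ecotype. In all, 25 were lower in both lines, 5 higher in both and 39 opposite, beside 26.8% lower in both, 30.3% higher in both and 42.9% opposite among all probe sets. Lower sums of the leaf markers in the lab calcifuge at 12.5 mM moved with this, and their part in it was not tested.

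The range within the plastid genes was wide in the lab calcifuge. The signal of rbcL, the large Rubisco subunit, was 133 at 12.5 mM and 846 at 1 mM in the lab calcifuge, and 799 at 12.5 mM and 742 at 1 mM in the low-soil-pH ecotype. The signal of psbA, the D1 protein of photosystem II, was 509 at 12.5 mM and 3788 at 1 mM in the lab calcifuge, and 1796 at 12.5 mM and 1888 at 1 mM in the low-soil-pH ecotype. In contrast atpB, of the plastid ATP synthase, had 6028 at 12.5 mM and 6675 at 1 mM in the lab calcifuge, and 5705 at 12.5 mM and 7033 at 1 mM in the low-soil-pH ecotype. For rbcL and psbA the lab calcifuge array at 12.5 mM stood below the other 3 arrays of the class, and for atpB it did not.

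Nuclear genes of the photosystems showed smaller differences than the plastid-encoded genes in the lab calcifuge. Of 7 tested, 4 were lower in both lines and 3 opposite, beside 26.8% and 42.9% of all probe sets. Their medians were -0.51 in the lab calcifuge and -0.11 in the low-soil-pH ecotype. All 7 were lower at 12.5 mM in the lab calcifuge, by -0.77 to -0.33, beside 6032 of all 13647 probe sets. In the low-soil-pH ecotype their changes lay between -0.37 and 1.23, and 1 of the 7 was at least 2-fold higher. PSAN, a photosystem I subunit, had 1243 at 12.5 mM and 2118 at 1 mM in the lab calcifuge, and 2139 at 12.5 mM and 2763 at 1 mM in the low-soil-pH ecotype. PYK10, the only root marker tested, differed by 1.74 in the lab calcifuge and 0.53 in the low-soil-pH ecotype.

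Other single genes also went opposite ways in the 2 calcifuge-class lines. Of the 27 probe sets with a 2-fold difference each way, 8 were higher in the lab calcifuge and lower in the low-soil-pH ecotype (0.0586%) and 19 the reverse (0.139%). AT1G30700, a berberine bridge enzyme-like oxidase, had 57.7 at 12.5 mM and 301 at 1 mM in the lab calcifuge, and 32.9 at 12.5 mM and 2.94 at 1 mM in the low-soil-pH ecotype. AT3G28220, a TRAF-like protein, had 113 at 12.5 mM and 927 at 1 mM in the lab calcifuge, and 954 at 12.5 mM and 359 at 1 mM in the low-soil-pH ecotype. AT2G38240, an oxygenase that inactivates jasmonate, differed by -1.95 in the lab calcifuge and 2.06 in the low-soil-pH ecotype. AT3G07350 differed by -2.45 and 1.43, and the GDSL lipase-like AT1G54020 by -1.53 and 1.32, in the same order of lines.

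In the other direction the differences were smaller. AT2G20550, a heat shock protein 40 family gene, differed by 1.32 in the lab calcifuge and -1.27 in the low-soil-pH ecotype, and AT4G27652 by 1.13 and -1.33. The transcription factor AGL61, the peroxidase AT5G64110 and AT2G13440 lay between 0.94 and 1.09 in the lab calcifuge and between -1.84 and -1.01 in the low-soil-pH ecotype. For these genes the mean of the 2 lines describes neither line.

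The shared changes of the calcifuge-class lines were compared with those of the calcicole-class lines. Of the 94 probe sets at least 2-fold higher in both calcifuge-class lines, 57 (60.6%) were also higher in both calcicole-class lines, beside 28.6% of all probe sets, and 2 were lower in both. Their median changes were 1.71 in the lab calcifuge and 1.38 in the low-soil-pH ecotype, against 1.17 in the lab calcicole and 0.21 in the high-soil-pH ecotype. Of the 98 lower ones, 61 (62.2%) were lower in both calcicole-class lines, beside 28.1% of all, and 7 were higher in both, with medians of -1.43 and -1.37 in the calcifuge-class lines and -0.67 and -0.74 in the lab calcicole and the high-soil-pH ecotype. The members were chosen by their size in the calcifuge-class lines, so the sizes are not compared between classes. By the same 2-fold rule 47 probe sets were higher in both calcicole-class lines (0.344%) and 164 lower in both (1.2%).

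No probe set passed the test of the class difference (0.0%), with 805 at an unadjusted p under 0.05 (5.90%) and a smallest limma adjusted p of 0.199. No gene is thereby shown to respond differently in the calcifuge-class lines. Across probe sets, the changes correlated at 0.266 between the calcifuge-class lines and at 0.307 between the calcicole-class lines. Between classes, the lab calcifuge correlated at 0.265 with the lab calcicole and 0.080 with the high-soil-pH ecotype, and the low-soil-pH ecotype at 0.327 with the lab calcicole and 0.214 with the high-soil-pH ecotype. The values within a class thus lay inside the range of those between classes. The calcicole-class response alone also had no probe set past the threshold (0.0%), with a smallest adjusted p of 0.0733.

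Among the genes with the smallest unadjusted p for a positive class difference, the calcifuge-class lines differed little or were higher and the calcicole-class lines were lower. AT3G51330, an aspartyl protease, had 70.8 at 12.5 mM and 71.4 at 1 mM in the lab calcifuge and 76.8 at 12.5 mM and 69.9 at 1 mM in the low-soil-pH ecotype, against 47.7 at 12.5 mM and 167 at 1 mM in the lab calcicole and 19.0 at 12.5 mM and 62.2 at 1 mM in the high-soil-pH ecotype. AT4G33040, a glutaredoxin, was higher by 1.70 and 0.98 in the calcifuge-class lines and differed by -0.72 and -0.33 in the lab calcicole and the high-soil-pH ecotype. AT1G68600, of the aluminium-activated malate transporter family, differed by 0.76 and 0.64 in the calcifuge-class lines and by -0.83 and -0.69 in the lab calcicole and the high-soil-pH ecotype.

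The remaining lists held few tested genes. The clock gene GI differed by 0.41 in the lab calcifuge and 0.27 in the low-soil-pH ecotype. Of 2 glucosinolate genes, UGT74B1 was higher in both lines by 0.22 and 0.41 and BCAT4 went opposite ways. The heat shock gene Hsp70-2 differed by -0.27 and -0.23. No member of the iron storage, nitrate and chloride, phosphate starvation, flower or seed lists is named by the platform table used here, so the response of chloride transporters was not analysed here.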

How the data were processed

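The authors deposited 1 signal intensity per probe set and array, made with MAS5 per the submitters' processing notes; version and settings are not given in the sources used here. The deposited intensities are linear and were already scaled: the trimmed mean was 100.0 on each of 8 arrays. No count stands behind a value, and the number of arrays limits the precision. Of 22810 probe sets, 64 controls were left out. Before log2, 2.507 was added to each value as a pseudocount (their 10th percentile), and the dimmest 40% by mean were left out, leaving 13647 tested, of which 7289 name 1 gene. The platform table names 1 gene for 13513 probe sets, several for 503 and none for 8730; 13436 matched TAIR10.1, used for names only.

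Fits used limma 3.58.1 in R 4.3.3 (two-sided, Benjamini-Hochberg over all tested) on 8 arrays, with line as a block and a dose effect per class, leaving 2 residual degrees of freedom. The pairing by line comes from the titles. The calculation was tested on simulated data. Errors are moderated SE of the fit, with 4.2 prior degrees of freedom taken from all probe sets beside the 2 residual ones.

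The members and gene lists were chosen with earlier results of these data known, and the family lists by gene symbol. The named genes are up to 12 past the threshold each way, filled to 15 with those of the largest smaller change shared by both lines at a signal of at least 30; 5 each way for the class difference and for opposite directions. Alternatives covered scaling, pseudocount, filter, shared probe sets, variance model, line block, threshold and left-out lines. Figures used matplotlib 3.10.9.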

Additional observations from a re-analysis of the deposited data

Results flagged for a closer look

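Among the named genes, 11 went one way at 12.5 mM CaCl2 in both calcifuge-class lines and the other way in both calcicole-class lines, and each is given by the class difference in its CaCl2 change, calcifuge-class minus calcicole-class, on the log2 scale. The share of all probe sets that part by class in this way was not counted. The difference was tested in limma and passed for none of the 11 (adjusted p 0.199 or higher). Genes higher in the calcifuge-class and lower in the calcicole-class lines were AT1G55760 (2.36), AT4G33040 (1.86), AT1G35710 (1.63), UGT72B3 (1.62) and AT1G68600 (1.46). For AT1G35710 the lab calcifuge differed by 0.0027 and the low-soil-pH ecotype by 0.15. Genes lower in the calcifuge-class and higher in the calcicole-class lines were AT4G39675 (-5.57), AT1G19530 (-4.46), XTH33 (-3.93), AT1G50040 (-3.17), AT4G10270 (-3.02) and AT3G10040 (-2.53). In the high-soil-pH ecotype AT1G55760 differed by only -0.15 and AT1G50040 by only 0.20, so their opposite direction rests on the lab calcicole. All named genes with the smallest p for the class difference were picked from 13647 probe sets for that difference, so that their opposite directions are in part a matter of choice.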

How the results depend on the processing

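No probe set passed for the calcifuge-class response under any of the alternatives run, left-out lines included. Its count at an unadjusted p under 0.05 was 1445, 1245 to 1377 with a line left out, and 555 with 4 arrays and no line block. The line block pairs the 2 doses of each line; the replicate number, the same on all arrays, adds no further pairing. For the class difference, 0 to 5 passed with a line left out, the 5 without the high-soil-pH ecotype (the lab calcicole alone then stands for its class), and 805 at an unadjusted p under 0.05 became 1226 with no filter (645 to 1070 with a line left out). The 94 shared higher probe sets became 56 with a pseudocount of 16, 251 with no filter, 425 at 1.5-fold and 17 at 3-fold. The 98 shared lower became 279 with no filter, 351 at 1.5-fold and 14 at 3-fold. The 27 opposite ones became 13 with a pseudocount of 16, 303 with no filter, 9 with a stricter filter, 207 at 1.5-fold and 6 at 3-fold. The wider counts with no filter hold dimmer probe sets. With a signal of at least 30 in the brighter array of each line, chosen after seeing the data, 85 and 96 stayed. Of 480 recomputed values of named genes, 479 kept direction and side of the threshold and none reversed; AT4G39675 passed for the class difference (-6.99) without the high-soil-pH ecotype. Of 190 recomputed list medians, 20 moved by more than the spread of the lines, and the cytochrome P450 median of 0.40 became -0.06 with no filter. With 1 array per line and dose, no within-line difference has an error of its own.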

Other observations

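Further genes of the 2-fold shared sets, chosen here after their values were seen, belong to the wall and to growth control. SKU5, a wall-bound protein of directional root growth, had a signal of 199 at 12.5 mM and 527 at 1 mM in the lab calcifuge, and 114 at 12.5 mM and 313 at 1 mM in the low-soil-pH ecotype. ATPMEPCRB, a pectin methylesterase, had 78.0 at 12.5 mM and 209 at 1 mM in the lab calcifuge, and 101 at 12.5 mM and 258 at 1 mM in the low-soil-pH ecotype. LAS (LATERAL SUPPRESSOR), a GRAS regulator of side shoots, differed by -1.44 in the lab calcifuge and -1.18 in the low-soil-pH ecotype, and by 0.06 and 0.02 in the lab calcicole and the high-soil-pH ecotype. In the same order of calcicole-class lines, SKU5 differed by -1.34 and -0.29 and ATPMEPCRB by -0.58 and -1.15. All 3 were dim to moderate in signal, and none passed the threshold (limma adjusted p 0.247 to 0.253).

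On the higher side, AT3G02480, a late embryogenesis abundant family gene, had 58.1 at 12.5 mM and 26.2 at 1 mM in the lab calcifuge, and 146 at 12.5 mM and 10.3 at 1 mM in the low-soil-pH ecotype. BETA-VPE, a vacuolar processing enzyme, had 495 at 12.5 mM and 118 at 1 mM in the lab calcifuge, and 258 at 12.5 mM and 122 at 1 mM in the low-soil-pH ecotype. AT2G15020 differed by 2.06 and 2.21 in the lab calcifuge and the low-soil-pH ecotype, but its lab signals were 10.9 at 12.5 mM and 0.693 at 1 mM, below the level set for naming.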
